A study of Homo sapiens with 6 samples.

Results

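Solute carriers (SLC) are the largest group of human membrane transporters, and this account describes the 130 SLC genes that were well expressed in MDA-MB-231 cells with and without the mitotic kinase NEK2. They were chosen by symbol, SLC followed by a family number, the letter A and a member number, and by a mean of at least 500 normalized read counts over all 6 libraries. Of 333 SLC rows listed at any level, 130 passed this mean, 85 lay between 10 and 500, 118 lay below 10, and 51 of these 118 were at 0 in every library. SLC22A5 and SLC25A20 stood just outside with means of 452 and 464, whereas SLC4A11 and SLC37A2 stood just inside with 526 and 547. The choice used the mean of the 6 libraries and not the difference between the groups. Because that mean pools both groups, 6 members had a group mean below 500, and SLC43A3 and SLC25A37 among them were regulated.

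MDA-MB-231 is an established cell line of triple-negative breast cancer (TNBC), the form that lacks the estrogen, progesterone and HER2 receptors. The cells were transfected in 2 rounds with a pool of non-targeting siRNAs (si-CTRL) or of siRNAs against NEK2 (si-NEK2), and the sample records give a harvest 24 h after the second round. Each group held 3 libraries of polyadenylated RNA, all of the 1 cell line, so that p-values measure the spread between these libraries, which may be technical. The values are read counts per gene divided by a library size factor, and they are not divided by gene length, so that levels are compared between groups and not between genes.

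Carriers of the SLC superfamily move nutrients, ions, metals and metabolites across membranes without using ATP directly. Those at the plasma membrane import amino acids, glucose, phosphate, nucleosides, choline and vitamins, often driven by the sodium gradient that the sodium pump maintains. Others load or empty organelles, such as the zinc carriers of the Golgi apparatus, the nucleotide sugar carriers of the secretory pathway and the large mitochondrial carrier family of the inner mitochondrial membrane. In tumour cells SLC7A5, SLC1A5, SLC2A1 and SLC16A3 are widely studied as routes for essential amino acids, glutamine, glucose and lactate.

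NEK2 itself was at 3702, 3323 and 3290.2 normalized counts in the si-CTRL libraries and at 284, 362 and 388 in the si-NEK2 libraries, 10% of the control mean. Mesenchymal markers of the line were high in every library (VIM between 134282 and 173162), whereas CDH1 and ESR1 stayed at or below 15.2, the leukocyte and endothelial markers PTPRC and PECAM1 stayed at or below 25.4, and ERBB2 ranged from 2455 to 4085. The mesenchymal markers CD44 and ZEB1 were lower in every si-NEK2 library than in every control, at 58.2% (log2 fold change -0.76, adjusted p = 0.00332) and 56.3% (log2 fold change -0.82, adjusted p = 0.00034) of the control mean, and ERBB2 was higher in every si-NEK2 library (log2 fold change 0.53, adjusted p = 0.00744). VIM (log2 fold change -0.18, adjusted p = 0.101) and AXL (log2 fold change -0.20, adjusted p = 0.0818) did not pass the test, and the part of these markers in the results was not tested. COL1A1, listed as a fibroblast marker, was high in every library, between 134168 and 181387, with overlapping groups, and its part in the results was not tested. The libraries held 52625492 to 87454509 reads on genes, and 1 read was worth 0.818 to 1.25 normalized counts. The groups separated on the first principal component, which held 61.7% of the variance. si-CTRL replicate 1 stood apart from its group on the second (16.2%), and its value lay more than 1.3-fold from the mean of the other 2 control libraries for 16 of the 130 genes. Counts without it are given beside the results.

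After depletion of NEK2, SLC genes moved in both directions. With the criteria that the study set for its genes, a limit of 0.05 on p together with a change of 1.5-fold or more, 22 of 130 SLC genes were regulated, 9 higher and 13 lower in si-NEK2 cells (limma on log2 of the normalized count plus 1). These are 16.9%, 6.92% and 10% of the members. Among the 18717 genes tested the shares were 22.5%, 8.23% and 14.3%, and among the 9859 tested genes with a mean of at least 500 they were 16.2%, 7.79% and 8.45%. The regulated share of the SLC genes is therefore near that of other genes of similar level. Without si-CTRL replicate 1, 7 were higher and 11 lower. The split depended on scaling, with 7 higher and 18 lower under upper quartile scaling and 6 higher and 22 lower when the libraries were set to equal totals, which moved the median log2 fold change of all tested genes from 0.01 to -0.11.

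Many more carriers moved by less than 1.5-fold. With p-values adjusted by Benjamini and Hochberg over all 18717 genes and a limit of 0.05, 38 SLC genes rose (29.2%) and 44 fell (33.8%), against 21.8% and 21.3% of all tested genes and 32.6% and 20.4% of those with a mean of at least 500. Hereafter "rose" and "fell" refer to this test. Libraries set to equal totals gave 27 that rose and 51 that fell, and the fit without si-CTRL replicate 1 gave 42 and 46. The lowest and the highest libraries of the 2 groups did not overlap for 95 SLC genes (73.1%), compared with 55.0% of all tested genes and 64.2% of those with a mean of at least 500. The median log2 fold change of the members was -0.03, against 0.01 for all tested genes and 0.10 for those with a mean of at least 500, within a range from -1.55 to 1.08. All 82 genes that passed the adjusted test kept their direction in each of 17 alternative analyses, and 55 kept an adjusted p of at most 0.05 in each.

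**Figure D1:**
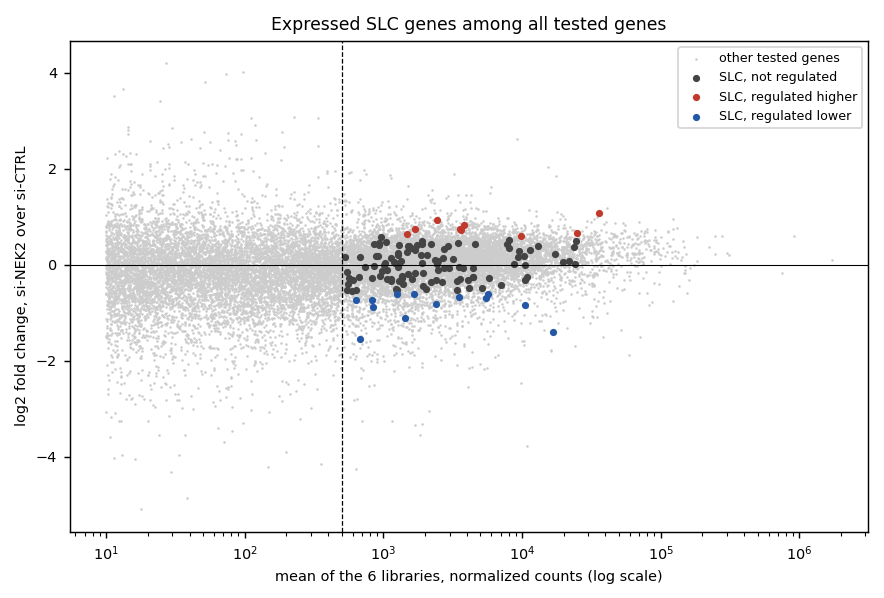
Log2 fold change of si-NEK2 over si-CTRL (y axis) against the mean normalized count of the 6 libraries (x axis, log scale) for all 18717 tested genes. Grey points are other genes, dark points the SLC genes that were not regulated, red and blue points the 9 and 13 regulated SLC genes, and the dashed line marks the mean of 500 that chose them. The SLC genes lie between -1.55 and 1.08, inside the spread of other genes of similar level.

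**Figure D2:**
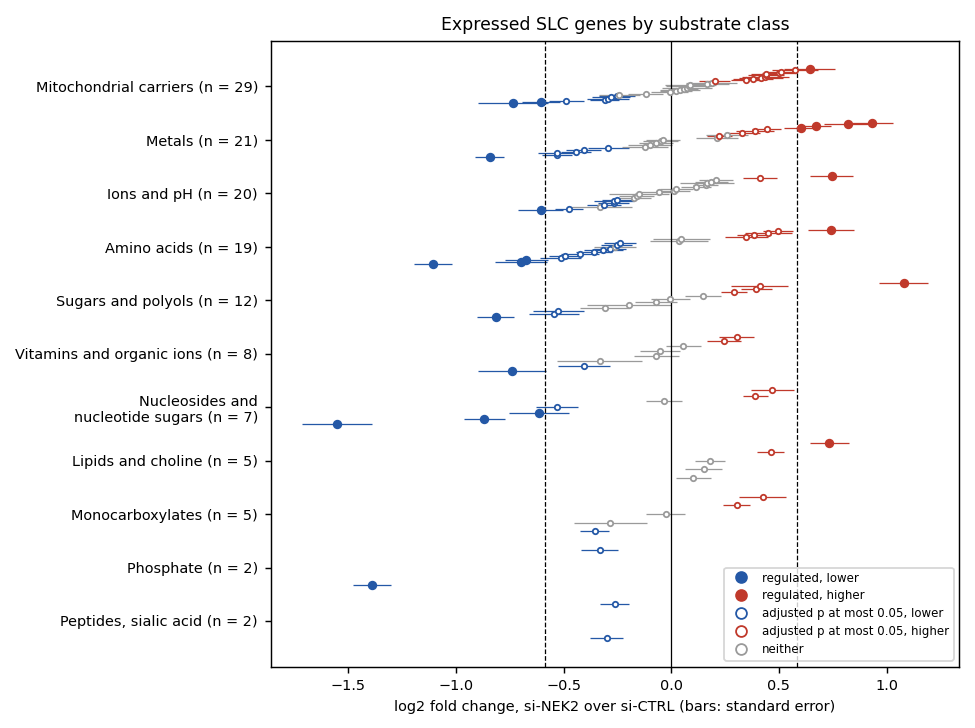
Log2 fold change of si-NEK2 over si-CTRL (x axis) for the 130 SLC genes, grouped by substrate class, with bars for the standard error of the limma fit over 3 libraries per group. Filled points are the 22 regulated genes, open coloured points passed only the adjusted test, and dashed lines mark a fold change of 1.5. Amino acid carriers lie mostly to the left and zinc and copper carriers reach farthest right among genes that share no row.

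The genomic sequence just before the start site is shown for the 3 largest unshared falls and the 3 largest unshared rises with an entry in the RefSeq promoter table (GRCh38.p14), since these are among the widest changes described here; SLC6A6 has no entry there. Each is the 250 bases upstream of the annotated start, on the plus strand, with capitals on GGGCGG (the GC box bound by SP1-type factors) and CCAAT (the CCAAT box), in either orientation. They lie at chr2:112645689-112645938 (SLC20A1), chr3:112561070-112561319 (SLC35A5), chr4:41990280-41990529 (SLC30A9), chr2:32165614-32165863 (SLC30A6), chr9:113221294-113221543 (SLC31A1) and chr5:128083516-128083765 (SLC12A2).
SLC20A1: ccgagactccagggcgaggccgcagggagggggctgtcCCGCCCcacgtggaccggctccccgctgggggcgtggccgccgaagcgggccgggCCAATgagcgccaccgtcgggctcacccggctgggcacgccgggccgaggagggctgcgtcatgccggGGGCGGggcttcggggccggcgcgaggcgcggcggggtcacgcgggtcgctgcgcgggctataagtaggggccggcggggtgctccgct
SLC35A5: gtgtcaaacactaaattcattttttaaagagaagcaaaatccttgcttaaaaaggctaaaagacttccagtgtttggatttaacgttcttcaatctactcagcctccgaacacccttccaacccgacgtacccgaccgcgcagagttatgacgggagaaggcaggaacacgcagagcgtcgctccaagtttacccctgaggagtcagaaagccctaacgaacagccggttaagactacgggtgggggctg
SLC30A9: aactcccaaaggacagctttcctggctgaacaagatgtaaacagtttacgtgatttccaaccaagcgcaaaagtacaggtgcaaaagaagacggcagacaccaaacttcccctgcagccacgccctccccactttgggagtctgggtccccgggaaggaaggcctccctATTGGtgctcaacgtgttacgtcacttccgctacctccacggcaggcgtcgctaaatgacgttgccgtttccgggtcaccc
SLC30A6: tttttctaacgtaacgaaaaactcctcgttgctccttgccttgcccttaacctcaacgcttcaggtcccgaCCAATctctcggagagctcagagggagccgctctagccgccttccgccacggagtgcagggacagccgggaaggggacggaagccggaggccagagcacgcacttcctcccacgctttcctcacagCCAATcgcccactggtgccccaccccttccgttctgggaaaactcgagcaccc
SLC31A1: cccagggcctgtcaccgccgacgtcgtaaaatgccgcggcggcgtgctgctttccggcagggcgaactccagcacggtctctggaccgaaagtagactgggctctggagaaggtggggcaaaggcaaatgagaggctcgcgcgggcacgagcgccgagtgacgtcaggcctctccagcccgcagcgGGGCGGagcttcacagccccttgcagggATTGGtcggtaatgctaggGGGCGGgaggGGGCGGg
SLC12A2: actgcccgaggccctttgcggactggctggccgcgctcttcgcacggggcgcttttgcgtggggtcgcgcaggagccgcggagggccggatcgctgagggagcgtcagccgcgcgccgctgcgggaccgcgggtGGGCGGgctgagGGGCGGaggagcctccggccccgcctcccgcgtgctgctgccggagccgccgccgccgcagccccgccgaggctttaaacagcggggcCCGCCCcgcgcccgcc

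The 6 promoters varied in base composition. SLC20A1, SLC31A1 and SLC12A2 were GC rich, at 80.0%, 68.0% and 79.6%, with 2, 3 and 3 GC boxes, whereas SLC35A5, at 48.8%, held neither motif. SLC30A6 held 2 CCAAT boxes and no GC box. Over the 105 members that matched the table by symbol, the mean GC content was 66.0%, against 56.9% for all 27305 promoters, and it was 66.6% for the members that fell and 65.4% for those that rose. GGGCGG was present in 72.4% of the members and 42.3% of all promoters, with 73.5% for members that fell and 72.7% for those that rose. CCAAT was present in 41.9% of the members and 33% of all promoters, with 32.4% for members that fell and 51.5% for those that rose. Among the other motifs of the 10 that were searched, the E-box CACGTG was in 13.3% of the members and 6.49% of all promoters. The metal response cores TGCGCNC and TGCACNC were in 17.1% and 8.57% of the members and in 16.9% and 9.73% of all promoters. TATAAA was in 4.76% of the members and 11.1% of all promoters, the AP-1 motif TGANTCA in 5.71% and 6.6%, TGATGNAA, read by ATF4, in 0.952% and 3.19%, the NRF1 motif in 4.76% and 5.53%, and CACTCC in 19% and 16.5%. The 34 members that fell and the 33 that rose held CACGTG in 14.7% and 15.2%, TGCGCNC in 11.8% and 12.1%, and TGCACNC in 8.82% and 15.2%. They held TATAAA in 0% and 12.1%, the AP-1 motif in 8.82% and 6.06%, and TGATGNAA in 0% and 3.03%. The NRF1 motif was in 0% and 12.1% of them, and CACTCC in 20.6% and 24.2%. Motifs were searched on both strands, and a base could count for more than 1 motif. All promoters include genes of any level, so that the members were not compared with other expressed genes here. These shares are descriptions with no test, and a match does not show that a factor binds there.

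The RNA of a phosphate importer showed the largest fall among members that share no row. SLC20A1 (chr2:113403434-113421402, hg19), which encodes the sodium-coupled phosphate importer PiT-1, had 21765, 24312 and 26966 normalized counts in the si-CTRL libraries and 8682, 9312 and 9783 in the si-NEK2 libraries. The highest si-NEK2 library was thus far below the lowest si-CTRL library, and the si-NEK2 mean was 38% of the control mean (log2 fold change -1.39, SE 0.09, adjusted p = 1.34e-05). SLC20A2, its paralog PiT-2, had 1365, 1172 and 1259 in si-CTRL and 966, 1022 and 1019 in si-NEK2. It fell as well, by 1.26-fold (log2 fold change -0.33, adjusted p = 0.0117), a call that was lost without si-NEK2 replicate 1. XPR1, the phosphate exporter, did not pass the test, with means of 2573 ± 255 in si-CTRL and 2444 ± 154 in si-NEK2 (SD, n = 3; log2 fold change -0.07, adjusted p = 0.557).

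Amino acid carriers mostly fell. Of 19 expressed members, 11 fell (57.9%) and 5 rose (26.3%) at an adjusted p of at most 0.05, with a median log2 fold change of -0.26. The shares among tested genes with a mean of at least 500 were 20.4% and 32.6%. Under upper quartile, equal total or quantile scaling 12 of the carriers fell and 4 or 5 rose. The count that fell was 11 without si-CTRL replicate 1 and 7 without si-NEK2 replicate 1 or without si-NEK2 replicate 2. In the regulated set, 3 were lower (15.8%) and 1 was higher (5.26%), against 8.45% and 7.79% of those tested genes. The number regulated lower was 5 with equal totals, 2 without si-CTRL replicate 1 and 4 without si-NEK2 replicate 3.

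SLC6A6 (chr3:14116852-14530855), the taurine transporter, had the largest fall of these 19, at 2106, 1849.9 and 1933 normalized counts in si-CTRL and 926, 842 and 963 in si-NEK2. Every si-NEK2 library was below every control, with a mean at 46.4% of the control mean (log2 fold change -1.11, SE 0.09, adjusted p = 3.55e-05). SLC7A5, the light chain LAT1 that imports leucine and other large neutral amino acids, had 8171, 6544 and 5666 in si-CTRL and 4109, 3984 and 4325 in si-NEK2. The si-CTRL libraries spread widely, and without si-CTRL replicate 1 the log2 fold change went from -0.70 (SE 0.12, adjusted p = 0.00185) to -0.56, short of 1.5-fold. SLC7A1, the cationic amino acid transporter CAT-1, had 4809, 4418 and 3804 in si-CTRL and 2621, 2554 and 2972 in si-NEK2, with no overlap (log2 fold change -0.67, SE 0.10, adjusted p = 0.000864). The row of SLC7A5 also carries a microRNA gene.

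SLC3A2, the heavy chain (CD98) that pairs with SLC7A5, SLC7A6 and SLC7A11, had 10059, 11903 and 12837 normalized counts in si-CTRL and 9119.6, 9514 and 9187 in si-NEK2. It fell less than SLC7A5 (log2 fold change -0.32, SE 0.09, adjusted p = 0.0203), although that difference between the 2 genes was not tested. Its call was lost when any library other than si-CTRL replicate 1 was left out (adjusted p up to 0.0704). SLC7A11, the cystine/glutamate exchanger, fell from 2373 ± 38 to 1686 ± 113 (SD, n = 3; log2 fold change -0.49, adjusted p = 0.000921). SLC1A5, the glutamine importer ASCT2, fell from 8141 ± 869.5 to 6051 ± 396 (log2 fold change -0.42, adjusted p = 0.00495). The creatine transporter SLC6A8 (log2 fold change -0.29, adjusted p = 0.014), SLC6A17 (log2 fold change -0.51, adjusted p = 0.00266) and SLC38A9, the arginine sensor of the lysosome (log2 fold change -0.36, adjusted p = 0.0082), fell in the same range.

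The 5 genes that rose included both expressed sodium-coupled importers of the SNAT type that are known as SNAT1 and SNAT2. SLC7A6, the light chain y+LAT2 that exchanges cationic for neutral amino acids, had 1449.8, 1134 and 1216 normalized counts in si-CTRL and 1967, 2088 and 2277 in si-NEK2, so that all si-NEK2 libraries were higher (log2 fold change 0.74, SE 0.11, adjusted p = 0.000672). SLC38A2, the sodium-coupled neutral amino acid importer SNAT2, had 18709, 20996 and 21339.5 in si-CTRL and 27982, 29689 and 28314 in si-NEK2, a 1.41-fold rise (log2 fold change 0.50, SE 0.07, adjusted p = 0.000642). SLC38A1 (SNAT1), which lies 88763 bases from SLC38A2, rose by 1.27-fold (log2 fold change 0.35, adjusted p = 0.02). That call was lost with equal totals (adjusted p = 0.105), with quantile normalization, and without si-CTRL replicate 2 or 3 or si-NEK2 replicate 2 or 3 (adjusted p up to 0.0741). SLC36A4 (log2 fold change 0.38, adjusted p = 0.00409) and SLC43A2 (log2 fold change 0.45, adjusted p = 0.00926) also rose. The remaining members of family 38 differed, since SLC38A6 (log2 fold change -0.25, adjusted p = 0.0212) and SLC38A7 (log2 fold change -0.24, adjusted p = 0.0322) fell, and SLC38A10 (log2 fold change -0.26, adjusted p = 0.0594) missed the test. SLC36A1 and SLC6A9 had groups that overlapped.

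**Figure D3:**
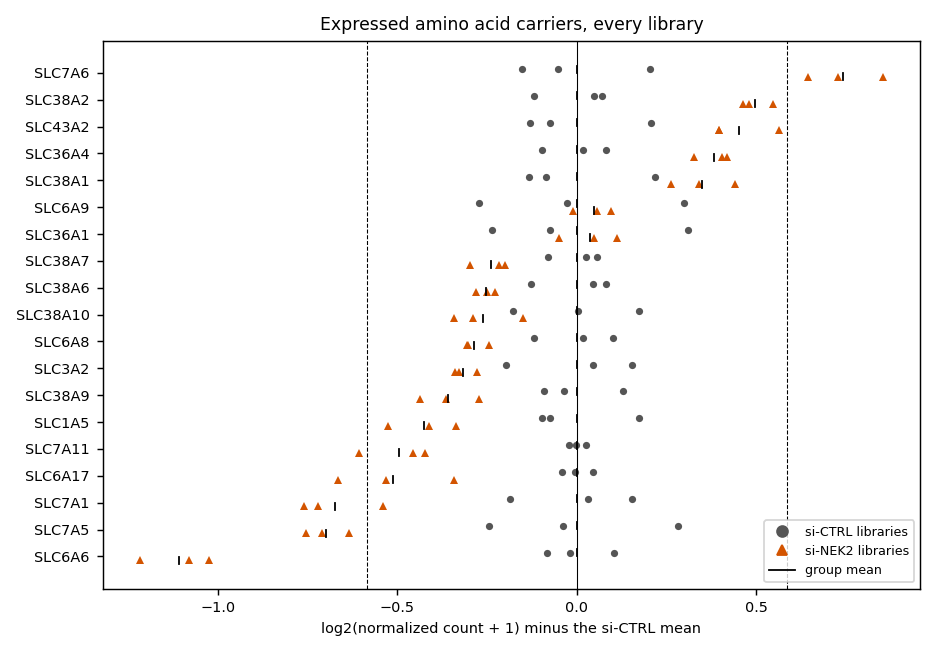
Log2 of the normalized count plus 1 in each library minus the si-CTRL mean (x axis) for the 19 expressed amino acid carriers, with circles for si-CTRL, triangles for si-NEK2 and ticks for group means. Dashed lines mark a fold change of 1.5. The 3 si-NEK2 libraries of SLC6A6, SLC7A5 and SLC7A1 lie left of all 3 controls, those of SLC7A6 and SLC38A2 lie right of them, and the controls of SLC7A5 spread widely.

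Sugar carriers went both ways. Of 12, 4 rose (33.3%) and 3 fell (25%), against 32.6% and 20.4% of tested genes with a mean of at least 500. Equal totals gave 2 that rose and 4 that fell. The regulated genes were 1 higher and 1 lower (8.33% each), near the 7.79% and 8.45% of those tested genes. Of the 12, 2 were regulated lower when si-CTRL replicate 1, si-CTRL replicate 2, si-NEK2 replicate 2 or si-NEK2 replicate 3 was left out. With upper quartile scaling or equal totals, 3 were regulated lower and 1 higher. SLC2A3, the glucose transporter GLUT3, had 2721, 3169 and 3299.7 normalized counts in si-CTRL and 1712, 1732 and 1758 in si-NEK2. The si-NEK2 libraries were tightly grouped at 56.6% of the control mean (log2 fold change -0.82, SE 0.08, adjusted p = 0.000144). SLC2A1, the glucose transporter GLUT1, had 8960.0, 8369 and 8209.9 in si-CTRL and 10503, 10237 and 10511 in si-NEK2. It rose by 1.22-fold (log2 fold change 0.29, SE 0.06, adjusted p = 0.00502), so that the pair of glucose transporters moved in opposite directions, although this rise was not called with equal totals (adjusted p = 0.0607) or quantile normalization (adjusted p = 0.0566). SLC2A10 also fell (log2 fold change -0.55, adjusted p = 0.00498).

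The largest rise of all members was on the row of SLC5A3, the sodium-coupled importer of myo-inositol, at 18791, 25354 and 25351 normalized counts in si-CTRL and 46838, 50358 and 48290.1 in si-NEK2 (log2 fold change 1.08, SE 0.11, adjusted p = 0.00015). That row is shared with MRPS6, a protein of the mitochondrial ribosome, so that the rise cannot be assigned to the carrier. Among the sugar phosphate exchangers of family 37, SLC37A3 (log2 fold change 0.39, adjusted p = 0.00222) and SLC37A4, the glucose-6-phosphate carrier of the endoplasmic reticulum (log2 fold change 0.41, adjusted p = 0.0346), rose, and SLC37A2 fell (log2 fold change -0.53, adjusted p = 0.00705).

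All 5 monocarboxylate carriers of family 16 changed by less than 1.5-fold. Of these, 2 rose (40%) and 1 fell (20%), against 32.6% and 20.4% of tested genes with a mean of at least 500. Without si-CTRL replicate 1, 2 fell, and with equal totals or without si-NEK2 replicate 3, 1 rose. SLC16A1, the lactate and pyruvate carrier MCT1, had 10727, 9706 and 10429 normalized counts in si-CTRL and 12655, 12570.1 and 12833 in si-NEK2, a 1.23-fold rise (log2 fold change 0.30, SE 0.06, adjusted p = 0.00444). SLC16A3, the lactate exporter MCT4, had 5103, 6599 and 7458 in si-CTRL and 6099.9, 5609.5 and 4077 in si-NEK2. Its libraries spread widely in both groups and overlapped (log2 fold change -0.28, SE 0.17, adjusted p = 0.218). SLC16A13 rose (log2 fold change 0.42, adjusted p = 0.0126) and SLC16A9 fell (log2 fold change -0.35, adjusted p = 0.00304).

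Metal carriers included 4 of the 9 regulated rises, a number that changed with scaling. Of 21 metal carriers, 8 rose (38.1%) and 6 fell (28.6%), against 32.6% and 20.4% of tested genes with a mean of at least 500. Regulated were 4 higher (19%) and 1 lower (4.76%), against 7.79% and 8.45% of those genes. Equal totals gave 6 that rose and 6 that fell, and without si-CTRL replicate 1 there were 8 and 7. The regulated genes were 3 higher and 3 lower with upper quartile scaling, 2 and 3 with equal totals, 2 and 2 with quantile normalization, and 3 and 1 without si-CTRL replicate 1. The 4 were 3 zinc carriers and a copper carrier.

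SLC30A6, the ZnT6 subunit that works with ZnT5 to bring zinc into the Golgi apparatus, had 1439, 1811 and 1809 normalized counts in si-CTRL and 3173, 3231 and 3184 in si-NEK2 (chr2:32390910-32449181, hg19). All si-NEK2 libraries lay well above the controls (log2 fold change 0.93, SE 0.10, adjusted p = 0.000147). SLC30A5, which encodes its partner ZnT5, had 7007, 7866 and 8479 in si-CTRL and 11386, 11974 and 12025 in si-NEK2. It rose as well (log2 fold change 0.60, SE 0.08, adjusted p = 0.000444), but it was just above 1.5-fold and fell short of it under upper quartile, equal total and quantile scaling and without si-CTRL replicate 1, with log2 fold changes from 0.48 to 0.54. SLC39A7, ZIP7, which releases zinc from the endoplasmic reticulum and Golgi apparatus, had 20352, 17973 and 18932 in si-CTRL and 29884, 29436 and 31816 in si-NEK2 (log2 fold change 0.67, SE 0.07, adjusted p = 0.000128). It was short of 1.5-fold under equal total (log2 fold change 0.54) and quantile (log2 fold change 0.53) scaling.

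SLC31A1, the high-affinity copper importer CTR1, had 2256, 3078 and 2923 normalized counts in si-CTRL and 4683, 4945 and 4833 in si-NEK2. The controls were spread, with si-CTRL replicate 1 the lowest, and yet did not reach the si-NEK2 libraries (log2 fold change 0.82, SE 0.11, adjusted p = 0.000545). Its neighbour SLC31A2, 57387 bases away, did not pass the test (log2 fold change 0.26, adjusted p = 0.0591). SLC39A1, the plasma membrane zinc importer ZIP1, had 16756, 15578 and 15669.7 in si-CTRL and 18519, 18477 and 19025 in si-NEK2, a 1.17-fold rise (log2 fold change 0.22, SE 0.06, adjusted p = 0.015), on a row that also carries a microRNA gene. With equal totals the log2 fold change was 0.10 (adjusted p = 0.231) and with quantile normalization 0.07 (adjusted p = 0.384), and the call was also lost without si-CTRL replicate 2 or 3 or si-NEK2 replicate 2 or 3 (adjusted p up to 0.0649).

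The zinc carrier SLC30A9 (ZnT9, a mitochondrial zinc exporter; chr4:41992523-42089550, hg19) was the 1 metal carrier regulated lower. It had 13179.5, 13311 and 14080.2 normalized counts in si-CTRL and 7047, 7692 and 7876 in si-NEK2. Both groups were tight and far apart, with the si-NEK2 mean at 55.7% of the control mean (log2 fold change -0.84, SE 0.07, adjusted p = 3.83e-05). The importers of family 39 were split, since SLC39A3, SLC39A6 and SLC39A9 rose with SLC39A1 and SLC39A7 (log2 fold changes 0.33, 0.44 and 0.39), and SLC39A8, SLC39A10, SLC39A13 and SLC39A14 fell (log2 fold changes -0.53, -0.44, -0.41 and -0.53). SLC39A11 was the tenth expressed member of that family and did not pass the test. Of the magnesium carriers SLC41A1 fell (log2 fold change -0.29, adjusted p = 0.0344) and SLC41A3 did not pass (log2 fold change -0.04, adjusted p = 0.729), and the iron importer SLC11A2 (DMT1) had overlapping groups (log2 fold change -0.07, adjusted p = 0.514).

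**Figure D4:**
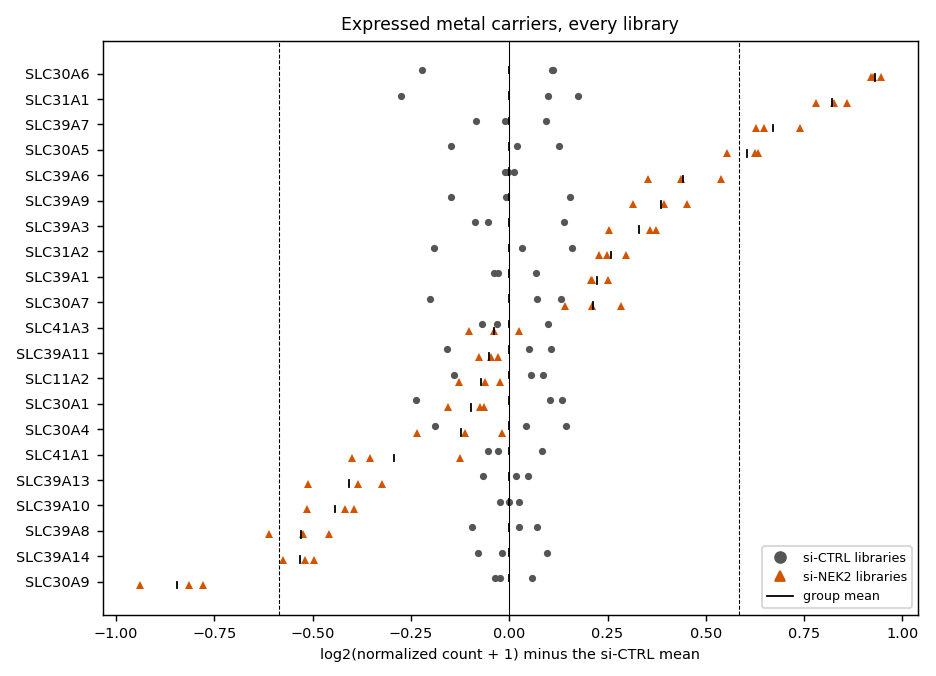
Log2 of the normalized count plus 1 in each library minus the si-CTRL mean (x axis) for the 21 expressed metal carriers, with circles for si-CTRL, triangles for si-NEK2 and ticks for group means. Dashed lines mark a fold change of 1.5. SLC30A6, SLC31A1, SLC39A7 and SLC30A5 lie right of the upper line by their means, SLC30A9 lies left of the lower line, and the genes between them spread from -0.53 to 0.44.

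Of 20 carriers of ions and of acid or base equivalents, 12 did not pass the adjusted test, 6 fell (30%) and 2 rose (10%). The shares among tested genes with a mean of at least 500 were 20.4% and 32.6%. With upper quartile scaling 8 of the carriers fell, and with equal totals 9, with 2 that rose in each. Without si-CTRL replicate 1, 6 fell and 5 rose, and without si-NEK2 replicate 3, 2 fell and 2 rose. SLC12A2, the sodium-potassium-chloride cotransporter NKCC1, which brings chloride into the cell, had 2317, 3037 and 2721 normalized counts in si-CTRL and 4313, 4599 and 4546 in si-NEK2. All si-NEK2 libraries were higher (log2 fold change 0.74, SE 0.10, adjusted p = 0.000474). Of other members of the same family, the chloride-extruding SLC12A4 (KCC1) fell by 1.39-fold (log2 fold change -0.48, adjusted p = 0.000535), SLC12A7 (KCC4) fell (log2 fold change -0.31, adjusted p = 0.0126) and SLC12A9 fell (log2 fold change -0.27, adjusted p = 0.0164).

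Of the sodium/proton exchangers, SLC9A8 (NHE8 of the Golgi apparatus) was regulated lower, from 1528 ± 172 to 1002 ± 87.7 normalized counts (SD, n = 3; log2 fold change -0.61, SE 0.10, adjusted p = 0.00185). It was short of 1.5-fold without si-CTRL replicate 1 (log2 fold change -0.51) or si-NEK2 replicate 1 (log2 fold change -0.54).

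The 6 expressed members of family 4, which holds the bicarbonate carriers, moved by at most 1.19-fold in either direction. SLC4A2, the anion exchanger AE2, had 11446, 12151 and 11735 normalized counts in si-CTRL and 10728, 9637 and 9337 in si-NEK2, a fall of 1.19-fold (log2 fold change -0.25, SE 0.07, adjusted p = 0.0185). Its call was lost without si-CTRL replicate 2 or si-NEK2 replicate 2 or 3 (adjusted p up to 0.0848). The row of SLC4A5, which is shared with DCTN1, a subunit of dynactin, had 25984, 23429 and 22139.9 in si-CTRL and 23729, 23468 and 24895 in si-NEK2. Its groups overlapped and its sign changed with scaling (log2 fold change 0.01, SE 0.07, adjusted p = 0.899). SLC4A7 also overlapped (log2 fold change 0.02, adjusted p = 0.826).

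The genes that these carriers depend on were read from lists of known partners. Over all 18717 tested genes, 8.23% were regulated higher and 14.3% lower. Among 6 tested subunits of the sodium pump, 3 were regulated higher and 2 lower. ATP1B3 rose (log2 fold change 0.71, adjusted p = 0.00327) and so did ATP1B2 (log2 fold change 0.73, adjusted p = 0.0352), whereas ATP1B1 (log2 fold change -0.85, adjusted p = 8.30e-05) and FXYD5 (log2 fold change -1.60, adjusted p = 0.000178) fell. ATP1B2 was low, with means of 25.8 normalized counts in si-CTRL and 44.1 in si-NEK2, against 9612 and 15474 for ATP1B3. Of the 6 kinases that act on cation-chloride carriers, WNK2 (log2 fold change -0.71, adjusted p = 0.00101) and WNK4 (log2 fold change -0.80, adjusted p = 0.000396) were regulated lower, WNK3 (log2 fold change 0.47, adjusted p = 0.0278) and OXSR1 (log2 fold change 0.41, adjusted p = 0.00188) rose by less than 1.5-fold, and WNK1 and STK39 did not pass the test. Of 6 tested partner subunits and chaperones, RTN2 (log2 fold change 0.70, adjusted p = 0.0011) and ARL6IP5 (log2 fold change 0.59, adjusted p = 0.000588), which bind glutamate carriers, were higher. BSG, the partner of the monocarboxylate carriers, did not pass (log2 fold change -0.11, adjusted p = 0.376).

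Mitochondrial carriers (family 25) were the largest class. Of 29 expressed members, 11 rose (37.9%), 7 fell (24.1%) and 11 did not pass the adjusted test. These shares lie near the 32.6% and 20.4% of tested genes with a mean of at least 500. Equal totals gave 8 that rose and 9 that fell, where the median log2 fold change of the class went from 0.08 to -0.05. Without si-CTRL replicate 1 there were 11 and 6, and the number that fell was 4 without si-NEK2 replicate 1 or without si-NEK2 replicate 2. Of the 29, 3 were regulated, 1 higher (3.45%) and 2 lower (6.9%), against 7.79% and 8.45% of tested genes with a mean of at least 500. Without si-CTRL replicate 2 or si-CTRL replicate 3, 2 were regulated higher.

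SLC25A37 (mitoferrin-1, an iron importer) was lower, with 1042, 693 and 665 normalized counts in si-CTRL and 452, 471 and 489 in si-NEK2 (log2 fold change -0.73, SE 0.16, adjusted p = 0.00632). The first control stood high, and without si-CTRL replicate 1 the log2 fold change was -0.53, short of 1.5-fold. SLC25A17, a peroxisomal carrier of the same family, was at 2012 ± 136 and 1321 ± 99.4 (log2 fold change -0.61, SE 0.09, adjusted p = 0.000728). It too was short of 1.5-fold without si-CTRL replicate 2 (log2 fold change -0.57) or si-NEK2 replicate 1 (log2 fold change -0.54). The second mitoferrin gene SLC25A28 fell less (log2 fold change -0.29, adjusted p = 0.0395), and so did SLC25A39, which imports glutathione (log2 fold change -0.49, adjusted p = 0.00156).

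SLC25A26, the importer of S-adenosylmethionine, was the 1 member of the family regulated higher, with 949, 1286 and 1267 normalized counts in si-CTRL and 1777, 1901 and 1739 in si-NEK2 (log2 fold change 0.64, SE 0.12, adjusted p = 0.00283). Without si-CTRL replicate 1, the lowest control, the log2 fold change was 0.50, and it was also short of 1.5-fold under upper quartile (0.58) and equal total (0.51) scaling. SLC25A3, the phosphate carrier of the inner membrane, had 17913, 22026 and 22188 in si-CTRL and 27723, 27792 and 25094 in si-NEK2, a 1.3-fold rise (log2 fold change 0.38, SE 0.09, adjusted p = 0.0103) that was not called with equal totals (adjusted p = 0.0579) or quantile normalization (adjusted p = 0.0594). It went in the opposite direction to the plasma membrane importer SLC20A1. SLC25A13, an aspartate/glutamate carrier (log2 fold change 0.44, adjusted p = 0.00143), SLC25A1, the citrate carrier (log2 fold change 0.44, adjusted p = 0.0113), SLC25A38, a glycine carrier (log2 fold change 0.50, adjusted p = 0.00111), and SLC25A44, a carrier of branched-chain amino acids (log2 fold change 0.51, adjusted p = 0.000832), also rose.

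Of the 3 expressed ADP/ATP carriers, 1 passed the test. SLC25A4 rose from 1622 ± 148 to 2193 ± 63.1 normalized counts (SD, n = 3; log2 fold change 0.44, adjusted p = 0.00319). SLC25A5 had 17648, 23141 and 23207 in si-CTRL and 22077, 22667 and 22431 in si-NEK2, with only si-CTRL replicate 1 standing low, and its sign turned without that library (log2 fold change 0.08, SE 0.10, adjusted p = 0.564). SLC25A6 had equal group means of 10499 and overlapping libraries. Outside the family name, MTCH1 rose (log2 fold change 0.40, adjusted p = 0.0035), the uncoupling protein UCP2 was higher (log2 fold change 0.70, adjusted p = 0.00762) and so was UCP3 (log2 fold change 0.79, adjusted p = 0.0239), whereas the pyruvate carrier subunits MPC1 (log2 fold change 0.20, adjusted p = 0.094) and MPC2 (log2 fold change 0.06, adjusted p = 0.609) did not pass the test.

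Carriers of nucleosides, nucleobases and nucleotide sugars held 3 regulated falls among 7 genes, with 4 that fell and 2 that rose at every scaling tried. In the main fit 42.9% were regulated lower, 57.1% fell and 28.6% rose. Among tested genes with a mean of at least 500 the shares were 8.45%, 20.4% and 32.6%. The lowest log2 fold change of all members was on the row of SLC43A3, a carrier of purine nucleobases, at 1272, 852 and 939 normalized counts in si-CTRL and 357, 293 and 384 in si-NEK2 (log2 fold change -1.55, SE 0.16, adjusted p = 0.000148). That row is shared with PRG2, a protein of eosinophil granules, so that reads of the 2 genes cannot be told apart. SLC35A5, a less studied member of the nucleotide sugar family, had 1171, 959.8 and 1128 in si-CTRL and 588, 600.1 and 589 in si-NEK2, and the si-NEK2 libraries were nearly equal (log2 fold change -0.87, SE 0.10, adjusted p = 0.000188). SLC29A1, the equilibrative nucleoside transporter ENT1, had 8699, 5935 and 6206 in si-CTRL and 4327, 4163 and 4955 in si-NEK2 (log2 fold change -0.61, SE 0.14, adjusted p = 0.00746). It was short of 1.5-fold without si-CTRL replicate 1 (log2 fold change -0.44) or si-NEK2 replicate 2 (log2 fold change -0.56).

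In the same class SLC35A3, the carrier of UDP-N-acetylglucosamine, fell (log2 fold change -0.53, adjusted p = 0.00273), whereas SLC35A4 rose from 10877, 11628 and 11230.1 normalized counts in si-CTRL to 14566, 14759 and 14834 in si-NEK2 (log2 fold change 0.39, SE 0.06, adjusted p = 0.000858). SLC35A2, the carrier of UDP-galactose, had overlapping groups (log2 fold change -0.03, adjusted p = 0.763). SLC35A1, the carrier of CMP-sialic acid, rose (log2 fold change 0.47, adjusted p = 0.00547) on a row shared with CFAP206. Over all 18717 tested genes, 14.3% were regulated lower, 21.8% rose and 21.3% fell. Among SLC genes of other name forms, 20 of 26 were tested, and 2 rose and 6 fell. In that list 3 were regulated lower and the other tested genes changed by less than 1.5-fold. Of the 3, SLC35E4 had 1359.8, 1324 and 1582 in si-CTRL and 440.3, 389.5 and 341 in si-NEK2 (log2 fold change -1.87, SE 0.12, adjusted p = 1.34e-05).

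Of 5 carriers of choline, fatty acids and acetyl-CoA, 2 rose (40%) at an adjusted p of at most 0.05, against 32.6% of tested genes with a mean of at least 500. The log2 fold changes of all 5 were above 0 in the main fit, from 0.10 to 0.73. The median of tested genes with a mean of at least 500 was also above 0, at 0.10. The lowest of the 5, SLC33A1, did not keep its sign, with -0.03 to 0.17 over the alternatives. SLC44A4 was regulated higher at 3023, 2405 and 2791 normalized counts in si-CTRL and 4412, 4577 and 4630.4 in si-NEK2 (log2 fold change 0.73, SE 0.09, adjusted p = 0.000304), but its row is shared with NEU1, the lysosomal sialidase. SLC44A2 rose by 1.38-fold (log2 fold change 0.46, adjusted p = 0.000614). SLC44A1, a choline carrier, had 8930.0, 10135 and 10124 in si-CTRL and 10716, 11377 and 10928 in si-NEK2, which did not overlap and yet missed the test (log2 fold change 0.18, SE 0.07, adjusted p = 0.0683). MFSD2A, a carrier of lysophosphatidylcholine outside the SLC names, was lower (log2 fold change -1.03, adjusted p = 0.000502).

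Among 8 carriers of vitamins and organic ions, 2 rose (25%) and 2 fell (25%). The shares were 32.6% and 20.4% among tested genes with a mean of at least 500. With equal totals none of the 8 rose and 2 fell. Without si-NEK2 replicate 3 none rose and 1 fell, and 1 rose and 1 fell without si-CTRL replicate 3, si-NEK2 replicate 1 or si-NEK2 replicate 2. SLC22A18, an organic cation transporter-like gene of an imprinted region, was regulated lower, at 911, 1047 and 1139 normalized counts in si-CTRL and 732, 659.7 and 480.1 in si-NEK2 (log2 fold change -0.74, SE 0.16, adjusted p = 0.00531). Its value in si-NEK2 replicate 3 was far below the others, and without that library the log2 fold change was -0.56. SLC5A6, the importer of biotin and pantothenate, had 1466, 1498 and 1542 in si-CTRL and 1744, 1786 and 2044 in si-NEK2 and rose (log2 fold change 0.30, SE 0.08, adjusted p = 0.0165), a call that was lost with equal totals (adjusted p = 0.124) and without si-NEK2 replicate 3 (adjusted p = 0.0678). SLC52A2, a riboflavin carrier, had 4004, 4604 and 5008 in si-CTRL and 4649.8, 4493 and 3819 in si-NEK2, which overlapped (log2 fold change -0.07, SE 0.10, adjusted p = 0.621). SLC19A1, the reduced folate carrier, was also low in si-NEK2 replicate 3, at 1467, 1230.0 and 816, and did not pass (log2 fold change -0.33, adjusted p = 0.208).

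Both carriers of the lysosome in the last class fell by less than 1.5-fold. SLC17A5, the sialic acid exporter sialin, had 1101, 1214 and 1211 normalized counts in si-CTRL and 945, 955 and 958 in si-NEK2 (log2 fold change -0.30, SE 0.08, adjusted p = 0.0129). SLC15A4, a peptide and histidine carrier, had 1479, 1497 and 1509.7 in si-CTRL and 1278, 1228 and 1231 in si-NEK2 (log2 fold change -0.26, SE 0.07, adjusted p = 0.0139). These 2 calls were lost without si-NEK2 replicate 2, and 1 was kept without si-NEK2 replicate 3. Over all 18717 tested genes, 8.23% were regulated higher and 14.3% lower, and 21.8% rose and 21.3% fell. Of 19 tested transporters whose names lie outside the SLC series, 3 were regulated higher and 2 lower. At an adjusted p of at most 0.05, 6 of the 19 rose and 4 fell. The heme and choline carriers FLVCR1 and FLVCR2 among them were far apart, with FLVCR1 higher (log2 fold change 0.85, adjusted p = 0.000173) and FLVCR2 lower (log2 fold change -1.52, adjusted p = 0.000289).

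**Figure D5:**
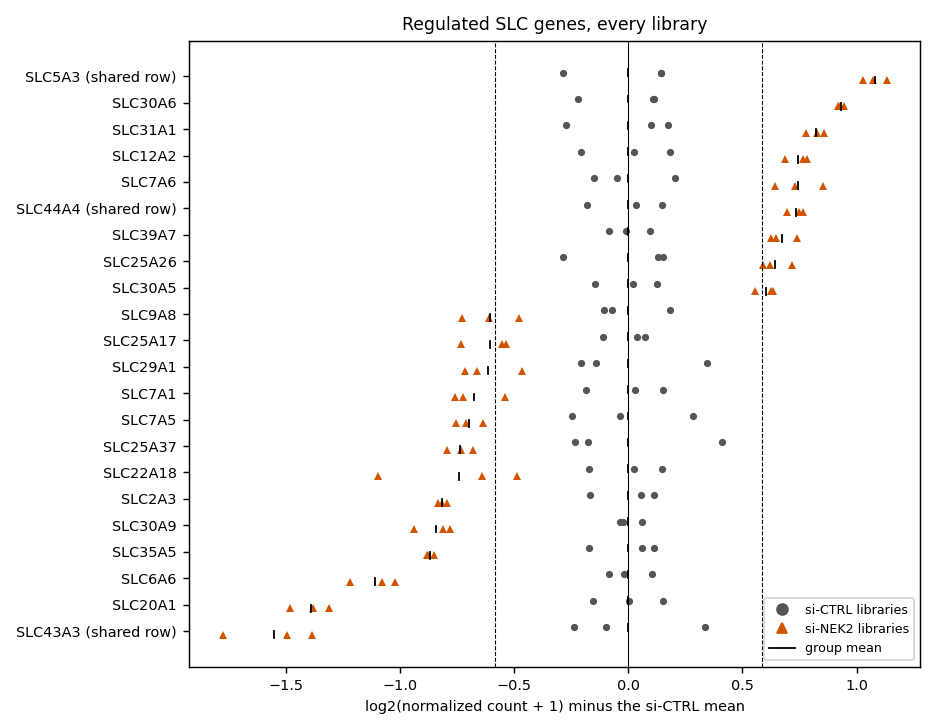
Log2 of the normalized count plus 1 in each library minus the si-CTRL mean (x axis) for the 22 regulated SLC genes, with circles for si-CTRL, triangles for si-NEK2 and ticks for group means. Dashed lines mark a fold change of 1.5. No si-NEK2 library overlaps the controls of its gene, and the controls of SLC43A3, SLC25A37, SLC7A5 and SLC29A1 spread the most.

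Some rows cannot be assigned to a single carrier. SLC43A3, SLC5A3, SLC44A4, SLC4A5, SLC25A51, SLC12A8, SLC45A3, SLC26A10 and SLC35A1 share a row with another protein-coding gene, and how reads were given to strands and overlapping genes is not given in the sources used here. Without these 9, 121 SLC genes remained, of which 7 were regulated higher and 12 lower, and 35 rose and 43 fell. The rows of SLC7A5, SLC16A3, SLC26A6 and SLC39A1 each carry a microRNA gene too. Sharing was judged by the symbols on a row and not by its coordinates. Whether wide rows, such as those of SLC6A6 (chr3:14116852-14530855) and SLC39A1 (chr1:153931575-154444182), overlap other genes was not checked.

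Replicates of the SLC genes were close, with a median coefficient of variation of 8.27% over the si-CTRL and 4.59% over the si-NEK2 libraries. The widest were SLC25A37 in si-CTRL (26.3%) and SLC19A1 in si-NEK2 (28.1%). Of the 22 regulated genes, 13 met both criteria in each of the 17 alternatives. These were SLC43A3, SLC20A1, SLC6A6, SLC35A5, SLC30A9, SLC2A3 and SLC7A1 among those lower, and SLC5A3, SLC30A6, SLC31A1, SLC12A2, SLC7A6 and SLC44A4 among those higher. Of the 82 SLC genes with an adjusted p of at most 0.05, 55 kept it in each alternative and 27 lost it in at least 1, none of them a regulated gene. Leaving out a library ended 24 of these calls, and a call could be lost with more than 1 library. Removing si-NEK2 replicate 2 ended 19 calls, replicate 3 ended 17 and replicate 1 ended 15. Removing control replicate 3 ended 12, control replicate 2 ended 11 and control replicate 1 ended 1. Among the genes named above, the adjusted p reached 0.162 for SLC25A28, 0.142 for SLC41A1, 0.135 for SLC38A7, 0.077 for SLC38A6, 0.0628 for SLC6A8 and 0.0557 for SLC39A3 in this way. It also reached 0.116 for SLC37A4, 0.0639 for SLC12A9, 0.0538 for SLC12A7 and 0.0511 for SLC16A13.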

How the data were processed

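PolyA plus RNA of MDA-MB-231 cells was sequenced in 3 si-CTRL and 3 si-NEK2 libraries. The authors deposited a signal for each gene and library, that is read counts divided by DESeq2 size factors, annotated with FAST DB on hg19 and kept separate for each replicate. The submitters' processing notes name STAR 2.4.0, SAMtools, Picard, FastQC and DESeq2. The counter and its strand setting are not given in the sources used here, although the library kit keeps strand. The harvest time comes from the sample records, and the methods of the study give another interval. Every deposited value was a whole multiple of 1 read (100% within 0.01 read), which gave back the reads for the count tests.

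Genes with a mean of at least 10 were tested across all 18717 genes with limma 3.58.1 (lmFit, eBayes with a trend) in R 4.3.3 on log2(value + 1), so that fold changes of low genes are understated. On the reads thus recovered, DESeq2 1.42.0 and the quasi-likelihood test of edgeR 4.0.16 were run as alternatives, beside another pseudocount, filter, scaling, a replicate block and each library left out. The main limma fit, edgeR and DESeq2 were also run on simulated counts that had the same dispersion for every gene. The other alternatives were not run on simulated data. p-values were adjusted by Benjamini and Hochberg over all genes tested. The depth lay between 52625492 and 87454509 reads per library, and the spread of replicates (chi-square per degree of freedom of 9.18 to 79.8 between replicate libraries) was wider than counting error.

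The members, the substrate classes and the related lists were chosen with earlier results of these data known. Every regulated member is named, with values of each library for the 8 largest rises and the 8 largest falls and for the 2 members of highest mean in each class; other names serve to describe a class and were chosen after their values were seen. Some members and partner genes enter the counts but are not reported here by name. Promoters came from RefSeq (GRCh38.p14) by symbol, and hg19 coordinates were not converted.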

Additional observations from a re-analysis of the deposited data

How the results depend on the processing

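Of 663 values of single genes and alternatives, 634 kept their direction and their side of the threshold, 18 kept direction only and 11 changed sign; 36 of 39 genes never changed sign. The median log2 fold change of the SLC genes was -0.097 with upper quartile scaling, -0.16 with equal totals, -0.076 with quantile normalization and 0.021 for members with a mean of at least 1000, and lay between -0.041 and -0.0090 when 1 library was left out. By construction upper quartile scaling and equal totals shift all genes together, and with equal totals 22 SLC genes were regulated lower. Quantile normalization does not, and with it the median log2 fold change of all tested genes was 0.046. A fold change of at least 2 left 4 regulated SLC genes, 1 higher and 3 lower, with 1 amino acid carrier and 0 mitochondrial carriers. With 1 library left out, 18 to 23 SLC genes were regulated, 7 to 10 higher and 11 to 14 lower, with 3 to 5 amino acid carriers and 1 to 4 mitochondrial carriers. Among these 39 genes, the sign changes were in 3 whose groups overlapped. Left-out libraries gave -0.039 to 0.077 for SLC4A5 and -0.050 to 0.15 for SLC25A5. SLC4A5 was at -0.052 with upper quartile scaling, -0.11 with equal totals, -0.12 with quantile normalization, -0.00051 with DESeq2, -0.039 without si-CTRL replicate 3 and -0.012 without si-NEK2 replicate 3. SLC25A5 was at -0.047 with equal totals, -0.063 with quantile normalization and -0.050 without si-CTRL replicate 1. SLC52A2 was at 0.0037 without si-CTRL replicate 3 and 0.016 without si-NEK2 replicate 3. The cause of these sign changes was not tested. Deviations of same-numbered libraries from their group means had correlations of -0.091, 0.047 and -0.15. With 3 libraries per group, these values cannot show whether same-numbered samples were handled together. With a replicate block 9 SLC genes were higher and 13 lower, and the median was -0.031. That block gave 4084 regulated genes in all, against 4213 without it. edgeR and DESeq2 also gave 9 and 13. Among the partner genes, the adjusted p rose to 0.13 for ATP1B2, 0.096 for WNK3 and 0.098 for UCP3 over the alternatives.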

Other observations

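SLC genes of lower level, with a mean between 10 and 500 normalized counts, were outside the main description. Of 85 tested, 28 (32.9%) were regulated in the same limma fit, 6 higher and 22 lower, against 22.5% among all tested genes. At an adjusted p of at most 0.05, 12 rose (14.1%) and 24 fell (28.2%). The shares were 9.83% and 22.3% among tested genes with a mean below 500. Of the 8858 tested genes with a mean below 500, 29.5% were regulated and 20.8% were regulated lower, so that the SLC shares of 32.9% and 25.9% lay near that background. The genes named here were chosen after their values were seen. SLC28A3, a concentrative nucleoside importer, had 154, 174 and 203 normalized counts in si-CTRL and 14.7, 19.9 and 17.1 in si-NEK2 (log2 fold change -3.29, SE 0.20, adjusted p = 1.14e-05), which is the largest fall among these 85. SLC47A1, an exporter of organic cations (MATE1), had 296, 354 and 356 in si-CTRL and 43.4, 73.2 and 70.4 in si-NEK2 (log2 fold change -2.44, SE 0.21, adjusted p = 5.46e-05). SLC7A7, the light chain y+LAT1, fell from 81.7 ± 9.57 to 16.3 ± 4.77 (SD, n = 3; log2 fold change -2.28, adjusted p = 0.000226), whereas its paralog SLC7A6 was among the rises.

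Family 16 held changes in both directions at this level. SLC16A6 fell from 225 ± 13.3 to 95.8 ± 9.15 normalized counts (SD, n = 3; log2 fold change -1.23, adjusted p = 0.000178). SLC16A4 rose from 61.2 ± 13.4 to 129.7 ± 17.5 (log2 fold change 1.08, adjusted p = 0.00255) and SLC16A14 from 169 ± 21.8 to 327 ± 21.5 (log2 fold change 0.96, adjusted p = 0.000522). SLC6A12, the betaine and GABA importer BGT1, had 58.7, 71.7 and 64.6 normalized counts in si-CTRL and 260.2, 285 and 352 in si-NEK2, the largest rise among these 85 (log2 fold change 2.18, SE 0.16, adjusted p = 2.61e-05). The expressed taurine importer of the same family, SLC6A6, moved the other way.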
